A study of Mus musculus with 7 samples.

Results

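The proteasome genes of cancer-associated fibroblasts (CAFs) were examined in mouse pancreatic tumors whose cancer cells had, or had not, been silenced for Brca2. Members were taken by symbol, as every gene whose name begins with Psma, Psmb, Psmc, Psmd, Psme, Psmf or Psmg followed by a number, without the immunoproteasome genes Psmb8, Psmb9 and Psmb10. The rule found 45 of the 12771 genes listed. Of these, 44 encode proteasome subunits, assembly chaperones, activators or an inhibitor, and 1, Psmc3ip, a partner of the recombinases of meiosis, shares only the name. Psma8, the testis form of an α subunit, and Psmb11, the thymus form of a cutting subunit, were not analysed here.

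The tumors were grown in the pancreas of male C57BL/6 J mice, 8 weeks old at injection, after injection of a mouse line of pancreatic cancer, KPC. The cells carried a lentiviral short hairpin RNA against Brca2 (shBrca2, 4 libraries, replicates 1 to 4) or a non-targeting hairpin (shControl, 3 libraries, replicates 1, 2 and 4), and both groups were selected with puromycin. Tumors were harvested between 2 and 3 weeks after injection. The hairpin was in the injected cancer cells and not in the fibroblasts, which came from the host, so the comparison asks how fibroblasts differ beside cancer cells with less Brca2. CAFs were collected by a sort for podoplanin on cells without CD45, CD31 and EpCAM, and the 3′ ends of their poly(A) RNA were counted. The study's figure legend gives 3 shControl and 4 shBrca2 mice, as many as the libraries, and all tumors came from 1 cancer cell line.

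The proteasome is the cell's main machine for breaking down proteins tagged with ubiquitin. Its 20S core is a barrel of α rings, which form the gates, and β rings, which hold the cutting sites; the 19S cap recognizes ubiquitin, removes it and threads the unfolded protein into the barrel. In cells exposed to interferon the 3 cutting subunits are exchanged for Psmb8, Psmb9 and Psmb10, and the PA28 activator of Psme1 and Psme2 is induced with them, which changes the peptides offered on MHC class I.

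Total counts ran from 1898679 to 5990579 per library. All 10 fibroblast markers were present, with summed normalized counts of 125620 to 144438 in shControl and 100464 to 120032 in shBrca2, and Dcn and Lum were lower in shBrca2. Of 9 epithelial markers 6 were measured, and Krt7, Krt8, Krt18 and Krt19 were higher in shBrca2, with sums of 411 to 1163 in shControl and 1467 to 2059 in shBrca2. Of 10 immune markers 7 were measured, with sums of 301 to 330 and 390 to 437. The log2 fold change was above 0 in 3 of the 7, with a median of -0.26. Csf1r and C1qa were higher in shBrca2 and Jchain was lower. Of 6 mesothelial markers 5 were measured, of 5 pericyte markers 5, and of 5 endothelial markers 2, and none of these were called. An endothelial marker with a DESeq2 adjusted p under 0.1 and a log2 fold change of -3.60 had a mean normalized count of 3.87. That is under the limit of 5 for a call. Epcam, Ptprc, Cd3e and Cd79a were not analysed here. In bulk RNA fewer cells of a type and less RNA per cell cannot be told apart, and the part that other cells had in the values below was not tested.

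No proteasome gene was called different between shBrca2 and shControl CAFs. The limits for a call were an adjusted p under 0.1 by DESeq2, a log2 fold change past 0.5 in either direction and a mean normalized count past 5. Of the 45 members 0 met them, where 9.04% of the 12768 genes tested did. A normalized count is the count divided by the size factor of its library. All 45 members had a mean normalized count over 5 and received a p. Psmd9 had the lowest, with raw counts of 3 to 14 per library, and could have shown only a large difference. At an unadjusted p under 0.05 there were 3 members (6.67%), Psmd8, Psmb7 and Psmf1, against 17.7% of all genes. edgeR also called 0 members, where over all genes it called 464 higher and 655 lower. It had 5 members at an unadjusted p under 0.05, and its share over all genes at that limit is not given here. With the fold limit set aside 1 member, Psmd8, had an adjusted p under 0.1, where 9.79% of all genes did.

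The members' differences were small and most lay above 0. The median log2 fold change of shBrca2 over shControl was 0.08 over the 45 members, with quartiles of 0.02 and 0.19, and 0.01 over all genes. The log2 fold change was above 0 in 36 members (80%), against 50.9% of all genes, in 35 with TMM scaling, in 41 with total-count scaling and in 28 to 35 with a library left out. The median absolute value was 0.10 for the members and 0.28 for all genes. Counts of this kind depend on depth, so the comparison was repeated for genes with a mean normalized count over 100. There, the 95% interval of the fold change lay within 1.5-fold of no change in either direction for 30 of 38 members (78.9%) and for 47.8% of 4625 genes. Over the members of any level the share was 31 of 45 (68.9%), and 20.8% of all genes. For 41 members (91.1%) a change of more than 2-fold lay outside the interval, as for 54.4% of all genes. These intervals are read gene by gene and carry no correction for their number.

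**Figure D1:**
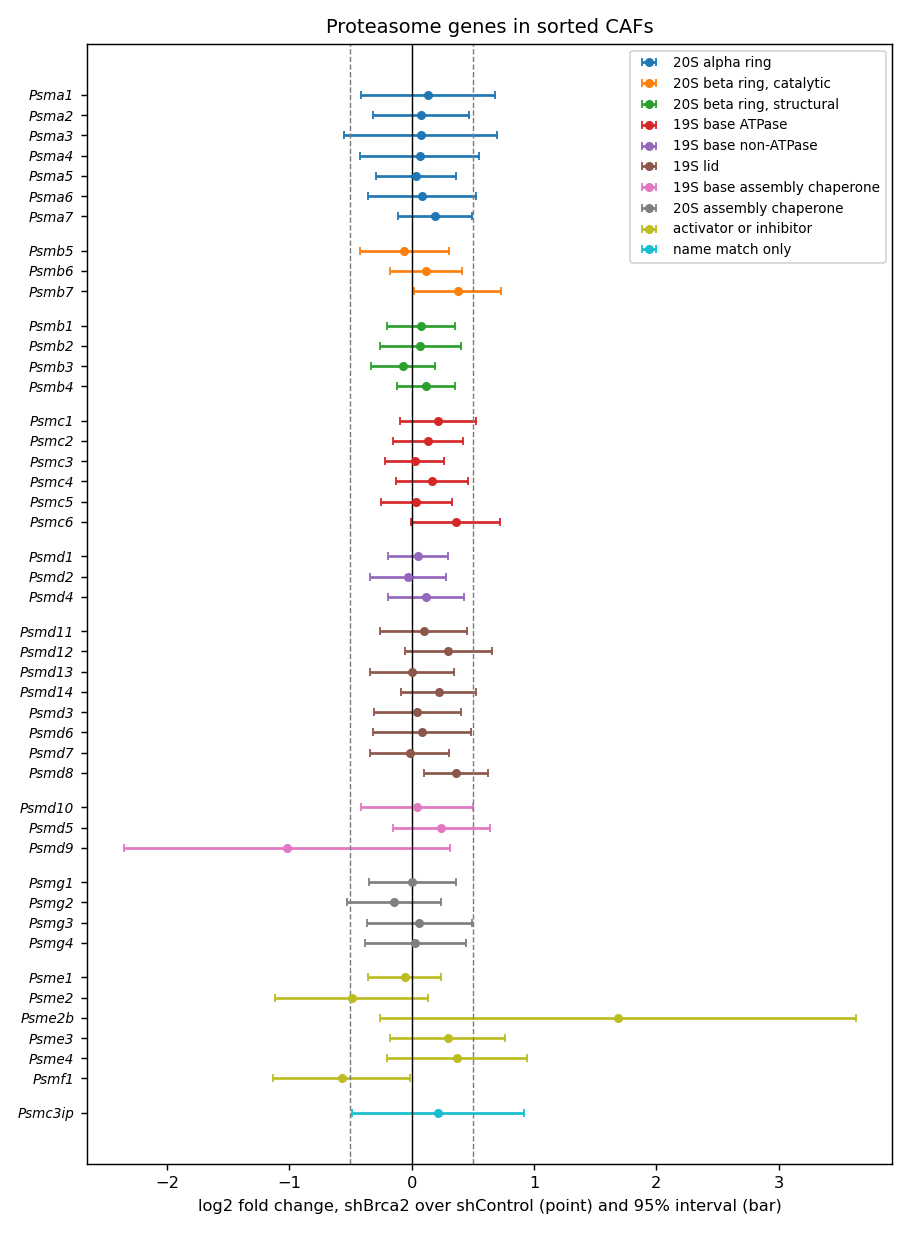
Log2 fold change of shBrca2 (n = 4) over shControl (n = 3) for the 45 members, by place in the proteasome. Points are DESeq2 estimates, bars 95% intervals, and dashed lines mark 0.5 in each direction; the core and cap members cluster just above 0, and the widest intervals belong to Psme2b and Psmd9.

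The size of the difference over the whole module depended on how libraries were scaled and on how members were weighted. As a share of all counts, the members summed to 0.561%, 0.552% and 0.558% in the 3 shControl libraries. Across the 4 shBrca2 libraries they summed to 0.653%, 0.609%, 0.646% and 0.655%. All 4 shBrca2 shares lay above all 3 shControl shares, by 0.0838 percentage points in the mean (0.557 ± 0.00466 and 0.641 ± 0.0215%, SD, n = 3 and 4). With the 100 most abundant genes taken out of the counts the shares were 0.809 ± 0.00786 and 0.908 ± 0.0198% (SD, n = 3 and 4), and the groups were again apart. On DESeq2's scale, which sets libraries by the typical gene, the mean log2 deviation of the members from their own average was 0.00044, -0.05 and -0.09 in shControl and 0.07, 0.04, 0.04 and -0.0047 in shBrca2. The groups overlapped in that mean, through shControl replicate 1 and shBrca2 replicate 4. That mean gives every member equal weight whatever its count, so it differs from the share in weighting as well as in scaling. The members' summed counts, divided by the size factor of the library, were higher in every shBrca2 library than in every shControl library. Scaling to total counts moved the median of all genes from 0.01 to 0.12 and that of the members from 0.08 to 0.19, and the members' median relative to all genes was 0.07 under both. The split of all calls moved as well, from 41.7% higher in shBrca2 to 58.5%.

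The α ring forms the outer gate of the core. All 7 members, Psma1 to Psma7, had log2 fold changes above 0, from 0.04 for Psma5 to 0.19 for Psma7, with a median of 0.08, and 0 were called. The most abundant, Psma7, averaged 1183 ± 44 normalized counts across shControl and 1353 ± 182 across shBrca2 (SD, n = 3 and 4), and the groups overlapped. Psma1, Psma4 and Psma6 varied more between libraries of 1 group than between groups, and each had its lowest value in shControl replicate 2.

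The 3 cutting subunits of the standard core were examined one by one. Psmb5, which has the chymotrypsin-like site, had normalized counts of 236, 299 and 250 in shControl (replicates 1, 2 and 4, in this order throughout) against 207, 269, 244 and 282 in shBrca2 (replicates 1 to 4). The groups overlapped, with the highest value in shControl replicate 2 and the lowest in shBrca2 replicate 1, and with a log2 fold change of -0.06 ± 0.19 (SE), a 95% interval of -0.42 to 0.30 and a DESeq2 adjusted p of 0.93. The sign of this value is not settled, as it was 0.05 with total-count scaling.

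Psmb6, with the caspase-like site, had 1014, 1271 and 967 normalized counts in shControl and 1206, 1205, 1098 and 1180 in shBrca2. The shControl libraries bracketed the shBrca2 libraries, and the log2 fold change was 0.12 ± 0.15 (SE; DESeq2 adjusted p = 0.79). Psmb7, with the trypsin-like site, had 299, 312 and 261 in shControl and 425, 391, 292 and 392 in shBrca2. Of the shBrca2 libraries 3 lay above every shControl library, and replicate 3 lay among them. The log2 fold change was 0.38 ± 0.18 (SE), with a 95% interval of 0.02 to 0.73 and a DESeq2 adjusted p of 0.25. Without shBrca2 replicate 3 it was 0.47 with an adjusted p of 0.090 (0.090 to 0.69 over the 7 fits with a library left out), and it stayed under the fold limit.

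The other 4 β subunits, Psmb1 to Psmb4, are structural. Their log2 fold changes ran from -0.07 for Psmb3 to 0.11 for Psmb4, and all 4 had 95% intervals within 1.5-fold of no change. Psmb4 had 2001, 1995 and 2034 normalized counts in shControl and 2148, 2158, 2035 and 2359 in shBrca2. The groups did not overlap, by less than 1 count between shControl replicate 4 and shBrca2 replicate 3, and the DESeq2 adjusted p was 0.72.

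Among all 45 members the groups did not overlap in 5, Psmb4, Psmc4, Psmc6, Psmd8 and Psmf1, which is 11.1% where the share over all genes was 17.1%. The first 4 were higher in shBrca2 in these values and Psmf1 was lower.

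The base of the 19S cap holds a ring of 6 ATPases, Psmc1 to Psmc6, which unfold the substrate. All 6 had log2 fold changes above 0, from 0.02 for Psmc3 to 0.36 for Psmc6, and 0 were called. Psmc4 had 346, 416 and 407 normalized counts in shControl and 426, 474, 421 and 420 in shBrca2, a log2 fold change of 0.17 ± 0.15 (SE; DESeq2 adjusted p = 0.66). Psmc6 had 233, 159 and 216 in shControl and 281, 259, 252 and 253 in shBrca2. All 4 shBrca2 libraries were close together, while shControl replicate 2 was far below the other two. The log2 fold change of Psmc6 was 0.36 ± 0.18 (SE; DESeq2 adjusted p = 0.29), and without shControl replicate 2 it was 0.22. Among the scaffold and receptor subunits of the base, Psmd1, Psmd2 and the ubiquitin receptor Psmd4, log2 fold changes ran from -0.03 to 0.12, and all 3 intervals lay within 1.5-fold.

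The lid of the cap, with 8 members, removes ubiquitin chains. Psmd8, a lid subunit, had the lowest adjusted p of all 45 members. Its normalized counts were 719, 787 and 778 in shControl and 962, 1061, 910 and 978 in shBrca2. Every shBrca2 library lay above every shControl library.

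The means of Psmd8 were 761 ± 36.8 (SD, n = 3) and 978 ± 62.5 (SD, n = 4), a 1.29-fold difference with a 95% interval of 1.08 to 1.54. Its log2 fold change of 0.36 ± 0.13 (SE; DESeq2 adjusted p = 0.074) was under the fold limit of the call. Its adjusted p was 0.17 by edgeR and 0.012 with total-count scaling, and it was between 0.11 and 0.48 when any of the 7 libraries was left out.

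Psmd14, the deubiquitinase of the lid, had 334, 311 and 287 normalized counts in shControl and 385, 388, 323 and 349 in shBrca2. shBrca2 replicate 3 lay below shControl replicate 1, and the log2 fold change was 0.22 ± 0.16 (SE; DESeq2 adjusted p = 0.52). The other 6 lid members ran from -0.01 for Psmd7 to 0.30 for Psmd12, with Psmd13 at 0.00.

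**Figure D2:**
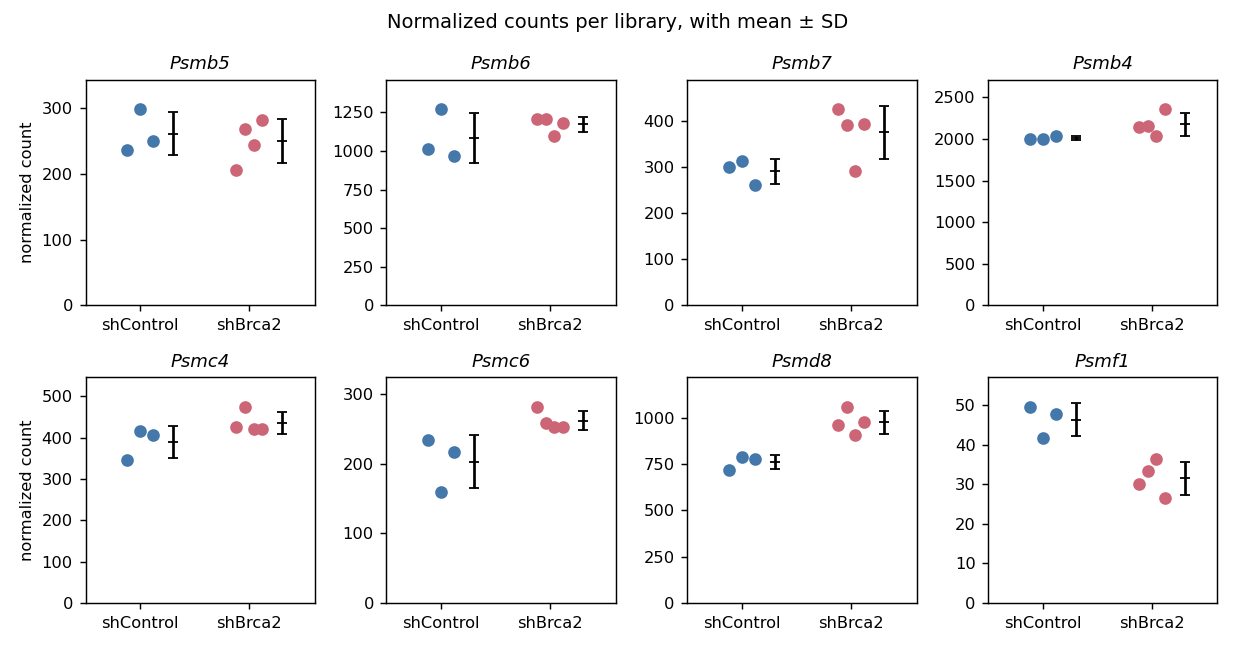
Normalized counts (y axis, from 0) of 8 members in each shControl (blue, n = 3) and shBrca2 (red, n = 4) library, with the mean ± SD in black. Groups overlap for Psmb5, Psmb6 and Psmb7 and are apart for Psmb4, Psmc4, Psmc6, Psmd8 and Psmf1; none of the 8 was called.

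None of the chaperones that build the proteasome was called. The 4 chaperones of the core, Psmg1 to Psmg4, had log2 fold changes from -0.14 to 0.06, with all 4 intervals within 1.5-fold. Of the 3 chaperones of the base, Psmd5 had 0.24 ± 0.20 and Psmd10 0.04 ± 0.23 (SE). Psmd9 had -1.02 ± 0.68 on its few counts (DESeq2 adjusted p = 0.47). Psmc3ip, the gene that shares only the name, had 0.22 ± 0.36.

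The activators and the inhibitor bind the core, and none of the 6 was called. Psmf1, the inhibitor PI31, had 49.5, 41.7 and 47.7 normalized counts in shControl and 30.1, 33.2, 36.3 and 26.4 in shBrca2. Every shBrca2 library lay below every shControl library, with means of 46.3 ± 4.07 (SD, n = 3) and 31.5 ± 4.22 (SD, n = 4). Its log2 fold change was -0.57 ± 0.28 (SE), with a 95% interval of -1.13 to -0.01 and a DESeq2 adjusted p of 0.26, and raw counts were 21 to 58 per library. The change was past the fold limit but not the limit on adjusted p.

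Psme3, the nuclear activator PA28γ, had 150, 224 and 125 normalized counts in shControl and 188, 250.1, 178 and 192 in shBrca2. Psme4, the activator PA200, had 103, 86 and 44.7 in shControl and 84.3, 114, 116 and 90.5 in shBrca2. Both overlapped between the groups, with log2 fold changes of 0.30 ± 0.24 and 0.37 ± 0.29 (SE; DESeq2 adjusted p = 0.60 and 0.58).

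Psme1, the α subunit of the interferon-inducible activator, had 1141, 1056 and 1299 normalized counts in shControl and 1050, 1274, 1130 and 1029 in shBrca2. The ranges overlapped almost entirely. Its log2 fold change was -0.06 ± 0.15 (SE; DESeq2 adjusted p = 0.91), and it was 0.05 with total-count scaling and 0.03 without shControl replicate 4.

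Psme2, the β subunit of that activator, cannot be read alone, because a near-identical copy, Psme2b, is counted beside it. Psme2 lies at chr14:55587440-55591101 and Psme2b at chr11:48945345-48946410 (GRCm38.p6). In GENCODE vM39 their canonical transcripts of 965 and 837 bases aligned over 795 bases, of which 790 (99.4%) were identical. The 5 differences were C510T, A567G, C687T, C717T and C741T, with the base of Psme2 first and positions counted from the 5′ end of its transcript. The final difference was followed by 222 bases of Psme2b, with no mismatch among those that aligned, and 3′ reads come from near that end. The stretch of the coding sequence with the last 3 differences is shown to make plain how little separates the pair, from position 667 to 761 of Psme2 and 541 to 635 of Psme2b, with differing bases in capitals.
Psme2: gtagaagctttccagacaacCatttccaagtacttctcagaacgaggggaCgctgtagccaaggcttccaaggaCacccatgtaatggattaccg
Psme2b: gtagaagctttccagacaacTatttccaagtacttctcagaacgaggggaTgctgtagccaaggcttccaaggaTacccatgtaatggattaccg

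Psme2b itself had 17.1, 26.6 and 18.5 normalized counts in shControl and 194, 21, 13.8 and 36.6 in shBrca2. One library, shBrca2 replicate 1, stood far above the rest, with 225 raw counts where the others had 8 to 36. In the same library Psme2 had 220 normalized counts, against 675, 512 and 763 in shControl and 523, 694 and 417 in shBrca2 replicates 2 to 4. Psme2b therefore took 46.8% of the counts of the pair in shBrca2 replicate 1 (95% exact Clopper-Pearson interval 42.2 to 51.3%, counting error only) and between 1.95% and 8.07% in the other 6 libraries.

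The log2 fold changes of the copies taken apart, -0.49 ± 0.32 for Psme2 and 1.68 ± 0.99 for Psme2b (SE; DESeq2 adjusted p = 0.45 and 0.43), were -0.26 and 0.24 without that library. Summed, the pair had 692, 539 and 781 normalized counts in shControl and 414, 544, 708 and 453 in shBrca2. The lowest values were in shBrca2 replicates 1 and 4 and the groups overlapped. The log2 fold change of the sum was -0.34 ± 0.22 (SE; DESeq2 adjusted p = 0.45), a comparison chosen after the data had been seen.

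No jump of that size was seen in the genes around Psme2b. Of the 7 genes measured within 300 kb, shBrca2 replicate 1 was the highest library for 2, Rack1 and Zfp62, with 10355 and 46.5 normalized counts against highest values of 10189 and 41.0 elsewhere. The interferon-inducible neighbors Irgm1 and Ifi47 were low there, at 168 and 79.2.

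**Figure D3:**
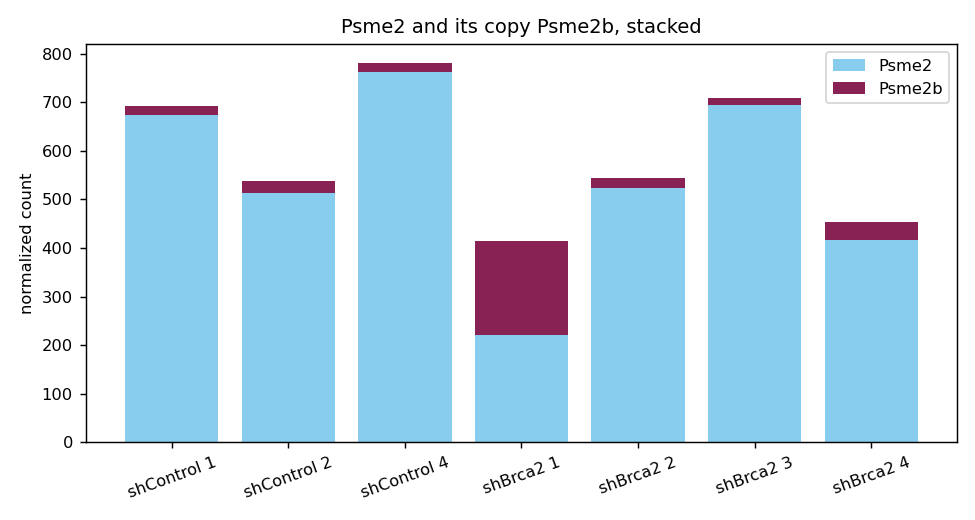
Normalized counts (y axis) of Psme2 and Psme2b stacked for each of the 7 libraries. The dark Psme2b part is 46.8% of the bar in shBrca2 replicate 1 and at most 8.07% elsewhere, and the whole bars are lowest in shBrca2 replicates 1 and 4.

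The promoters of the pair share no such likeness. The 300-base windows of RefSeq on GRCm38.p6, from 250 bases before the start to 50 after it, had no common run longer than 8 bases, in contrast to the transcripts. Both are shown whole, in lower case because neither held any of the 8 motifs searched below, with Psme2 at chr14:55591052-55591351 and Psme2b at chr11:48946361-48946660, each on the minus strand.
Psme2: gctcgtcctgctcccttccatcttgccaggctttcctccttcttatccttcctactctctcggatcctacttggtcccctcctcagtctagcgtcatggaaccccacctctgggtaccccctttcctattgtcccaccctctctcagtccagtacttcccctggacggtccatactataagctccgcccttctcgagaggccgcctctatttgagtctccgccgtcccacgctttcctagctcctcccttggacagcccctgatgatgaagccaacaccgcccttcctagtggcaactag
Psme2b: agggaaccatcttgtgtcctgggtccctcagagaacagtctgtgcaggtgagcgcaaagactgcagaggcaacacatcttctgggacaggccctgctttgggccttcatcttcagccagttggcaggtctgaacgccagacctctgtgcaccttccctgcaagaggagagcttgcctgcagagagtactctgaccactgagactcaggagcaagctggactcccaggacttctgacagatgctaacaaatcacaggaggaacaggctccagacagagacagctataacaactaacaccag

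The genes left out of the module, which replace the cutting subunits under interferon, were set beside them. Psmb8 had 758, 875 and 1061 normalized counts in shControl and 682, 1004, 824 and 571 in shBrca2, a log2 fold change of -0.22 ± 0.22 (SE; DESeq2 adjusted p = 0.69). Psmb9 had 220, 191 and 287 in shControl and 99.0, 214, 197 and 101 in shBrca2. Psmb10 had 729, 743 and 788 in shControl and 507, 671, 712 and 504 in shBrca2. For all 3 genes shBrca2 replicates 1 and 4 were the lowest of the 7 libraries, and only for Psmb10 did the groups not overlap.

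The log2 fold change was -0.61 ± 0.31 for Psmb9 and -0.33 ± 0.18 for Psmb10 (SE; DESeq2 adjusted p = 0.27 and 0.31), and 0 of the 3 were called. Psmb9 crossed the limits in 1 fit, without shBrca2 replicate 2, with a log2 fold change of -0.84 and an adjusted p of 0.060 (0.060 to 0.69 over the 7 fits with a library left out).

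Within a library the ratio of each inducible subunit to the one it replaces does not depend on scaling. The log2 ratio of Psmb9 to Psmb6 was -2.20, -2.73 and -1.75 in shControl and -3.60, -2.49, -2.47 and -3.54 in shBrca2. The means were -2.23 ± 0.49 and -3.02 ± 0.63 (SD, n = 3 and 4), a shBrca2 minus shControl value of -0.80 with a two-sided exact permutation p of 0.17. For Psmb10 to Psmb7 the values were 1.28, 1.25 and 1.59 in shControl and 0.25, 0.78, 1.28 and 0.36 in shBrca2, which differed by -0.71 in the mean (p = 0.11 in the same two-sided exact test). shBrca2 replicate 3 lay among the shControl values for that ratio.

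For Psmb8 to Psmb5 the means differed by -0.17, with p = 0.69 by the exact permutation test, and it was 0.02 without shBrca2 replicate 4. Adjusted over the 3 ratios the p-values were 0.26, 0.26 and 0.69, and the smallest two-sided p of this test, which doubles the one-sided p over 35 divisions of the libraries, is 0.057, so it could not reach 0.05.

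The interferon response genes were measured beside these subunits. Of 29 such genes, 5 were lower in shBrca2 (5.27% of all genes tested were called lower) and 0 were higher, with a median log2 fold change of -0.54 and 25 of 29 below 0. Those called were Ifit3 (-1.14) and Isg15 (-0.74), antiviral effectors, Cxcl10 (-0.84), a chemokine, and Tap2 (-0.66) and B2m (-0.99), genes of MHC class I presentation. Their mean log2 deviation was 0.42, 0.01 and 0.56 in shControl and -0.66, 0.31, 0.13 and -0.77 in shBrca2. The same 2 libraries as for the inducible subunits, shBrca2 replicates 1 and 4, were the lowest, and the other shBrca2 libraries lay inside the shControl range. The count dropped to 1 when shBrca2 replicate 1 or shBrca2 replicate 4 was left out and to 0 when shControl replicate 4 was, and it was 9 or 11 when shBrca2 replicate 3 or 2 was. It was 3 with shControl replicate 1 left out, 3 by edgeR and 3 with total-count scaling.

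**Figure D4:**
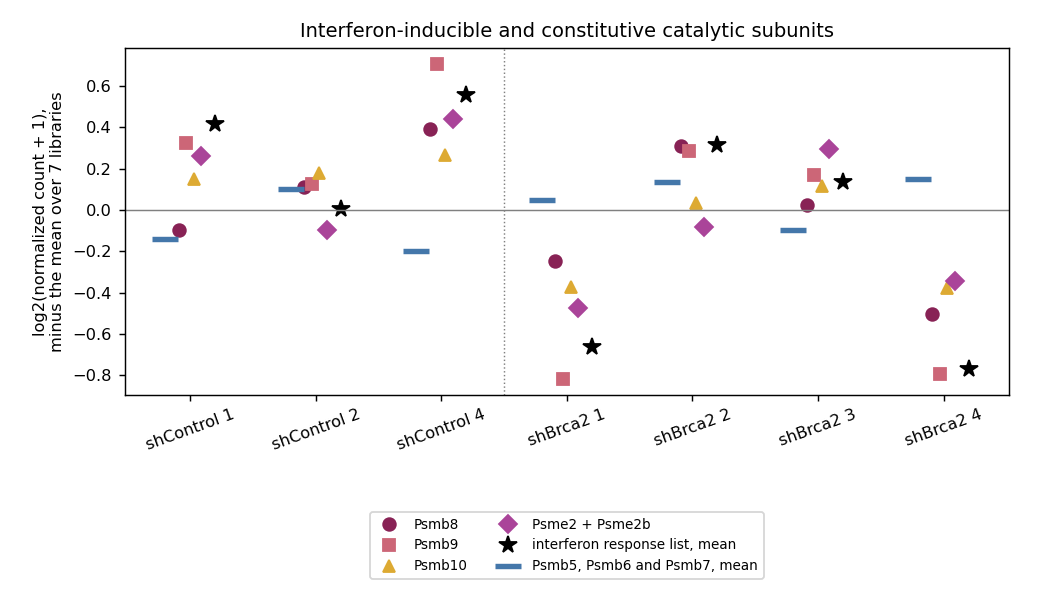
Log2(normalized count + 1) minus its mean over 7 libraries (y axis), for Psmb8, Psmb9, Psmb10 and the sum of Psme2 and Psme2b, with the mean over 29 interferon response genes (stars) and over Psmb5, Psmb6 and Psmb7 (bars). The inducible genes and the stars are lowest in shBrca2 replicates 1 and 4, and the bars are not.

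Other genes of the ubiquitin and proteasome pathway were taken from 8 lists with 109 genes tested, Psmb8, Psmb9 and Psmb10 included, and 0 were called by DESeq2 or by edgeR, where 9.04% of all genes were called by DESeq2. Their mean normalized counts went down to 2.65, and those under the limit of 5 could not be called. At an unadjusted p under 0.05 in DESeq2 there were 4 (3.67%), against 17.7% of all genes. For the regulators of proteasome genes, 13 of 14 measured, the median was -0.04 on the log2 scale. Nfe2l1, the transcription factor that raises proteasome genes when the proteasome is inhibited, had 445, 563 and 576 normalized counts in shControl and 385, 406, 489 and 354 in shBrca2. shBrca2 replicate 3 overlapped shControl replicate 1, and the log2 fold change was -0.37 ± 0.18 (SE; DESeq2 adjusted p = 0.23). Its relative Nfe2l2, the regulator of antioxidant genes, had -0.04, and the heat shock factor Hsf1 had 0.10.

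The 16 of 18 proteasome partners measured had a median of 0.05. Among them Pomp, which matures the core, had 647, 682 and 621 normalized counts in shControl and 719, 715, 743 and 739 in shBrca2. All 4 shBrca2 libraries lay above shControl, by a log2 fold change of 0.17 ± 0.13 (SE; DESeq2 adjusted p = 0.56). The ubiquitin genes and E1 enzymes, which start the ubiquitin chain, had a median of 0.09 over 6 genes. The E2 enzymes, which carry ubiquitin on, had 0.04 over 30 of 34, and the p97 machinery, which pulls proteins out of membranes and complexes, had -0.04 over 19 of 20.

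A pair of complexes built on the same plan as the lid was included. The 10 genes of the COP9 signalosome, which controls ubiquitin ligases, had a median of 0.08 (log2 fold change). The translation initiation factor eIF3 had 0.20 over 12 of 14 genes, of which 11 were above 0, and none were called. Of 29 proliferation genes measured, 2 were higher in shBrca2 (3.77% of all genes tested were called higher), Ccnb1 (1.003) and Cenpa (0.93), with a median of 0.52. Their mean deviation was -0.67, 0.29 and -0.59 in shControl and 0.44, 0.32, -0.23 and 0.44 in shBrca2.

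Sequence features of the members were then set beside their values. In shControl replicate 2 the members' deviations from their own means followed the GC content of their canonical transcripts. Across the 45 members Pearson's r was 0.63 (Spearman's rho 0.59) in that library and between -0.19 and 0.06 (rho -0.34 to 0.05) in the other 6, as a description across genes that share a library and are not independent. With the GC of the last 500 bases r was 0.58, and over 4504 genes of any function with a mean count over 100 it was 0.35, against -0.22 to 0.16 in the other libraries.

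When the members were ranked by GC in 3 sets of 15, the lowest set, between 37.6% and 47.1%, lay below their own means in this library in all 15 cases, with a mean deviation of -0.27 on the log2 scale. The middle and highest sets had mean deviations of 0.04 and 0.06. Psma1, Psma4, Psma6 and Psmc6 were among the members low in it. Without this library the members' median log2 fold change was 0.07 and 28 of 45 were above 0, against 36 of 45 with it. The lowest value of a member was in shControl replicate 4 for 14 members and in shControl replicate 2 for 12, where these libraries held the lowest value for 14.8% and 16.7% of all genes.

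**Figure D5:**
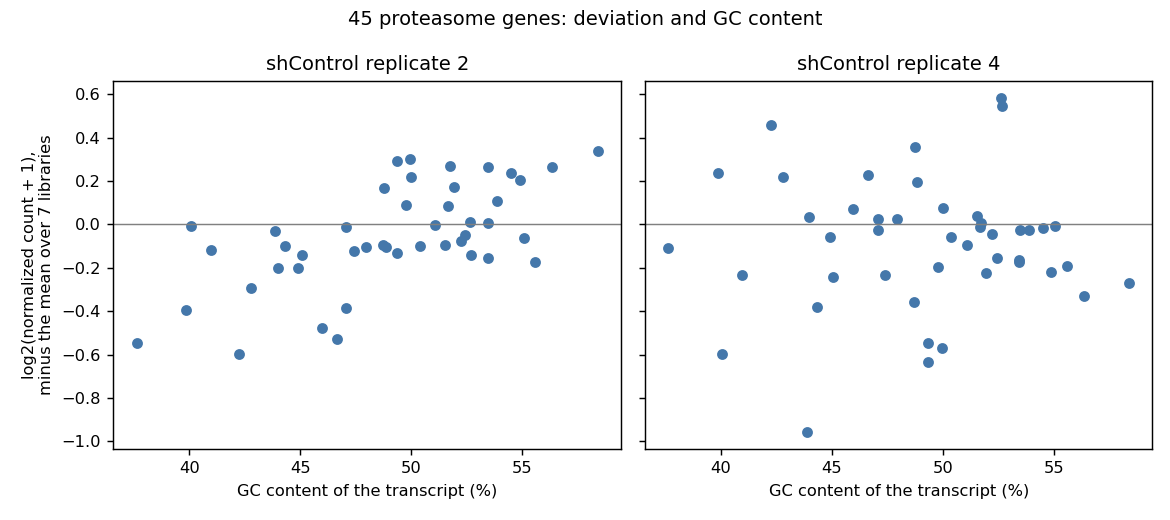
Deviation of each of the 45 members from its mean over 7 libraries (y axis, log2(normalized count + 1)) against GC content of its transcript (x axis, percent), in shControl replicate 2 (left) and shControl replicate 4 (right). Members of low GC lie below 0 on the left, and on the right no such slope is seen, with r of 0.63 and 0.03.

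The promoters were searched for 8 motifs on both strands, in windows of 300 bases from RefSeq (GRCm38.p6). They were found for 38 of 45 members, with 41 windows. Matches are descriptions of letters and not sites, and a run may match more than 1 motif. The ETS site ACCGGAAG was in 7 windows (17.1%), those of Psmc2, Psmc3ip, Psmd12, Psmd2, Psmd6, Psmg1 and Psmg3, and in 2.30% of 32851 windows of all genes. The interferon response element, a pair of GAAA runs with any 2 bases between them, was in 5 (12.2% against 3.44%), Psmb3, Psmd4, Psmd9, Psme1 and Psmg4, whose log2 fold changes were -0.07, 0.12, -1.02, -0.06 and 0.03.

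The antioxidant response core TGACNNNGC, which Nfe2l1 can bind, was in 6 (14.6% against 12.4%), Psmb5, Psmb6, Psmc6, Psmd12, Psmd9 and Psme4. The heat shock element, GAA, TTC and GAA with any 2 bases between each, was in 0 of 41 and in 0.603% of all windows. The CCAAT box CCAAT was in 13 (31.7% against 37.4%), the gamma-activated site TTCNNNGAA in 2 (4.88% against 8.30%), the YY1 site AAGATGGC in 3 (7.32% against 2.75%) and the E2F site TTTCCCGC in 2 (4.88% against 1.07%).

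A pair of windows is shown as examples, on the plus strand with matches in capitals. Psmd12, at chr11:107479278-107479577, held the antioxidant core and the ETS site, and Psme1, at chr14:55578244-55578543, held the interferon response element, each match read from the opposite strand.
Psmd12: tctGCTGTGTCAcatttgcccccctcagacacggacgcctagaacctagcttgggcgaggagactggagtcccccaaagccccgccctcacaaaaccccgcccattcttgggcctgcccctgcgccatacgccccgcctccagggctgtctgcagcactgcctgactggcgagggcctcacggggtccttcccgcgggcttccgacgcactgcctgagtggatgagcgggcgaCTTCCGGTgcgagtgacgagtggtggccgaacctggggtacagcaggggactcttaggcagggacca
Psme1: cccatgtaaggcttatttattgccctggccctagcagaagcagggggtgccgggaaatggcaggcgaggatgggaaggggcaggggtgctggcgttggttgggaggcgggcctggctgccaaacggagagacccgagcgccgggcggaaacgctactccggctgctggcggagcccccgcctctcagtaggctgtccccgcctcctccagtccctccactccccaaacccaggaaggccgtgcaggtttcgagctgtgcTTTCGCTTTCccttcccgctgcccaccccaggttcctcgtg

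The log2 fold change of Psmd12, a lid subunit, was 0.30 ± 0.18 (SE; DESeq2 adjusted p = 0.41), on 215, 204 and 167 normalized counts in shControl and 238, 266, 207 and 246 in shBrca2, and the groups overlapped through shBrca2 replicate 3.

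The annotation limits a few members. Within the last 500 bases of the canonical transcript, 6 members overlapped a gene on the opposite strand in GENCODE vM39, Psmb7, Psmc3ip, Psmc5, Psmd13, Psmd4 and Psme1, and 2 overlapped one on the same strand, Psmd1 and Psmg3. The handling of strand was not given in the sources used here, and these 8 members' counts are uncertain to that extent.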

How the data were processed

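The authors deposited 1 table of raw counts per gene symbol for the 7 CAF libraries, made from 3′ reads of a MARS-seq variant and not normalized. The submitters' processing notes name mm10, bcl2fastq, cutadapt, STAR 2.4.2a, HTSeq and DESeq2; the annotation, strand and collapsing of molecular barcodes were not given in the sources used here. Groups followed the recorded silencing. The labels do not name the animals behind the libraries, and p-values measure the spread between these libraries.

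From the counts, DESeq2 1.42.0 (R 4.3.3) was fitted to all genes by the test that the study's methods name, a likelihood ratio test for the group term after median-of-ratios scaling. p-values were adjusted by Benjamini-Hochberg over all genes, fold changes were not shrunken, and 3 genes had no p. edgeR 4.0.16 (quasi-likelihood, TMM) was an alternative, with others of scaling, filter, test and library. Ratios of subunits used log2 of count + 1 and an exact permutation test (scipy 1.17.1). Deviations used log2(normalized count + 1) less the gene's mean. GC and transcripts came from GENCODE vM39, promoters and positions from RefSeq on GRCm38.p6. Code was tested on simulated data.

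The members and the 16 lists were chosen with earlier results of these data known. Values in every library were given for members that were called or did not overlap, for Psmb5 to Psmb10, Psmd14, Psme1 to Psme4 and Psmf1, and for Nfe2l1 and Pomp; called genes of the lists were named, those of the interferon and proliferation lists with their log2 fold change. Psma7, Psmd12, Psme2b and neighbors of Psme2b were named after their values were seen.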

Additional observations from a re-analysis of the deposited data

Results flagged for a closer look

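In the shBrca2 group, with 4 libraries, 53 sets of values were examined for a library far from the rest by Dixon's test. Its level is set so that chance alone flags about 1 in 20, and 7 sets were flagged. The sets share the same libraries and Psme2b enters more than 1 of them, so that rate cannot judge the 7 flagged sets. Psme2b was one, at 194 normalized counts in replicate 1 where the others had 13.8 to 36.6, and its share of the Psme2 pair was another, at 46.8% where the others had 1.95 to 8.07%. Psma4, a subunit of the α ring, had 226 in replicate 3 and 143 to 149 elsewhere, and Psma5, of the same ring, had 242 in replicate 4 and 300.3 to 307 elsewhere. Psmc4, an ATPase, had 474 in replicate 2 and 420 to 426 elsewhere. Psmd11, of the lid, had 164 in replicate 1 and 138 to 140.3 elsewhere. Psmg2, a chaperone of the core, had 124.2 in replicate 2 and 107 to 108 elsewhere.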

How the results depend on the processing

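The members called stayed at 0 under edgeR, TMM or total-count scaling, the Wald test, no independent filtering, a minimum of 10 counts in 3 libraries, the sum of Psme2 and Psme2b (chosen after seeing the data) and each left-out library, and was 1 without the fold limit. The median log2 fold change of the members was 0.19 with total-count scaling and 0.053 to 0.11 with 1 library left out, the highest without shBrca2 replicate 4. Psmb5 became positive, at 0.054 with total-count scaling, and ran from -0.13 to 0.042 with a library left out (0.024 without shBrca2 replicate 1). Psme1 was 0.053 with total-count scaling and ran from -0.13 to 0.028. The Psmb8 to Psmb5 difference ran from -0.28 to 0.019, the last without shBrca2 replicate 4. Interferon response genes called were 3 with total-count scaling, 3 by edgeR and 0 to 11 with a library left out, and the 8 pathway lists had 0 to 3: Psmb9 without shBrca2 replicate 2, Cops2 without shControl replicate 1, and Ube2c, Ube2l6 and Ube2m without shControl replicate 2. Over all genes, 261 to 610 were called higher and 354 to 695 lower with a library left out. The causes were not tested. With the replicate number as a block (numbers 1, 2 and 4) 242 were higher and 322 lower, on fewer libraries, and 0 members. Same-numbered libraries correlated at -0.07, -0.10 and -0.09, where shControl and shBrca2 libraries of unlike number ran from -0.10 to 0.19. So few pairs cannot show whether the numbers pair the libraries. A further 218 values of single genes and 107 of counts, medians, shares and ratios kept their direction and, where tested, their call; a gene could still cross 1 of the limits, as Psmd8 did on adjusted p. With the Wald test 482 genes were called higher and 666 lower. Depth limited Psmd9, Psmc3ip, Psmf1, Psma3 and Psme2b most.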
